A study of Mus musculus with 6 samples.

Results

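The let-7 family is a set of microRNAs (miRNAs) that share one seed, the stretch of bases by which a miRNA pairs with its target messages. Of the 2202 mouse miRNA genes in the annotation, 10 were examined here: Mirlet7a-1, Mirlet7b, Mirlet7c-1, Mirlet7c-2, Mirlet7d, Mirlet7e, Mirlet7f-1, Mirlet7f-2, Mirlet7g and Mirlet7i. Reads of 18 to 26 nt that matched one of these genes without mismatch on the sense strand were counted. The genes give 17 distinct mature forms, 8 from the 5p arm and 9 from the 3p arm, and each form is described once because paralogues such as Mirlet7c-1 and Mirlet7c-2 share it. Levels are reads per 1000000 reads of all miRNA genes (RPM).

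The small RNA came from whole testis of C57BL/6 mice, in 6 libraries of 1 pool each. Dnmt3L knockout (KO) and wild-type (WT) testes were sampled before birth, at 16.5 dpc (days post coitum, pools of 7 or 8 mice), and after birth, at 10 dpp (days post partum, pools of 3 mice). Miwi2 KO and WT testes were sampled at 10 dpp, also as pools of 3 mice. The WT animals were littermates of the KO animals. Dnmt3L is a cofactor of the DNA methyltransferases that set methylation in fetal male germ cells, and Miwi2 is a PIWI protein that guides methylation of transposons with piRNAs. The labels name neither the alleles nor a Cre driver, and miRNA reads hold no check of the deleted gene.

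Let-7 precursors are cut by Drosha and Dicer, and one arm of the hairpin, here nearly always the 5p arm, is loaded into an Argonaute protein as the guide strand. LIN28, an RNA-binding protein of pluripotent cells and early germ cells, binds the precursor loop and blocks this maturation. Mature let-7 is known to be scarce in embryonic stem cells, to accumulate as tissues differentiate, and to repress growth genes such as Hmga2 and Lin28 itself. Let-7d differs from the other members in that its 3p arm is also known to accumulate.

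The 8 5p forms and miR-98-5p, a relative outside the 10 genes, are shown because some differences between libraries, though not all, ran along their central bases. The mature sequences are those of RefSeq (GRCm38.p6), where 10 of 10 genes and 17 of 17 forms were matched. Capitals mark the seed, bases 2 to 8 from the 5′ end.
let-7a-5p: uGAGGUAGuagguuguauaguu
let-7b-5p: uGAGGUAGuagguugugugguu
let-7c-5p: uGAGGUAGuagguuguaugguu
let-7d-5p: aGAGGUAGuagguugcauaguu
let-7e-5p: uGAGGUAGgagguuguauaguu
let-7f-5p: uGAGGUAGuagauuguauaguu
let-7g-5p: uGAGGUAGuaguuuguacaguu
let-7i-5p: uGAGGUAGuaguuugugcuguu
miR-98-5p: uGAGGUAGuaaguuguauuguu

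All 8 let-7 5p forms are 22 nt long and carry the seed GAGGUAG. Relative to let-7a-5p, with positions counted from 1 at the 5′ end, let-7c-5p differs by A19G, let-7e-5p by U9G and let-7b-5p by A17G and A19G. Let-7d-5p differs by U1A and U16C. These 5 forms, let-7a-5p to let-7e-5p, all have GG at bases 11 and 12. The other 3 do not: let-7f-5p carries G12A, let-7g-5p carries G12U and U18C, and let-7i-5p carries G12U, A17G, U18C and A19U. The seed relative miR-98-5p also lacks GG at these bases. Mir7k and Mir1961, which also carry the seed, had at most 3 reads of their own in any library.

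The 3p arm has its own seeds. Let-7d-3p is shown because it was the only 3p form above 50 RPM, and let-7i-3p and let-7g-3p because their counts moved against their 5p partners at 16.5 dpc.
let-7d-3p: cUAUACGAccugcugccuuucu
let-7i-3p: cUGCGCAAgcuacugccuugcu
let-7g-3p: aCUGUACAggccacugccuugc

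The genes lie at 7 loci (GRCm38). Mirlet7a-1 (chr13:48538179-48538272), Mirlet7f-1 (chr13:48537829-48537917) and Mirlet7d (chr13:48536012-48536114) form a cluster on the minus strand, in exons of the long noncoding RNA 6720427I07Rik. Mirlet7c-2 (chr15:85706603-85706697) and Mirlet7b (chr15:85707319-85707403) lie 716 bases apart in exons of Lncppara. Mirlet7c-1 (chr16:77599657-77599750) is in an intron of Mir99ahg, Mirlet7e (chr17:17830352-17830444) in an intron of Spaca6, Mirlet7g (chr9:106178840-106178927) in an intron of Wdr82, and Mirlet7f-2 (chrX:151912346-151912428) in an intron of Huwe1, 868 bases before Mir98. Mirlet7i (chr10:122985640-122985724) overlaps an exon of the transcribed pseudogene D630033A02Rik. Mirlet7a-2, which is not among the 10 genes, also yields let-7a-5p, so reads of that form cannot be assigned to 1 locus.

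The libraries held 28701563 to 47232494 reads, of which 12101706 to 24433370 matched miRNA genes. This was 25.6% of all reads in Dnmt3L KO and 29.3% in WT at 16.5 dpc, 75.5% in Dnmt3L KO and 64.2% in WT at 10 dpp, and 38.6% in Miwi2 KO and 39.4% in WT. Between 99.7% and 99.95% of family reads fell in a single mature form. Mir10b alone, whose reads enter the scale of every RPM value, held 19.6% of miRNA reads in Dnmt3L KO and 26.1% in WT at 16.5 dpc, 33.7% in Dnmt3L KO and 41.5% in WT at 10 dpp, and 14.9% in Miwi2 KO and 13.8% in WT. A count of 0 allowed up to 3 counts, or 0.123 to 0.248 RPM. Intervals given below are 95% intervals of counting error only, since reads carry no molecular identifiers, and with 1 library per group no difference could be tested or set against a spread between animals. In whole testis, fewer cells of a type and less RNA per cell cannot be told apart. The testis-specific X-linked miRNAs were all detected (15 of 15) and summed to 10037 to 81861 RPM, and Mir202, a Sertoli cell miRNA, stood at 103 to 800 RPM.

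The family made up 2.25% of miRNA reads in Dnmt3L KO and 2.07% in Dnmt3L WT testes at 16.5 dpc. At 10 dpp its share was 5.76% in Dnmt3L KO and 3.85% in Dnmt3L WT testes, and 7.53% in Miwi2 KO and 6.41% in Miwi2 WT testes. The 4 libraries of 10 dpp thus all held a larger let-7 share than both fetal libraries.

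Among members whose 5p forms have GG at bases 11 and 12, let-7c-5p was the most abundant in every library. Its level was 8606 RPM in Dnmt3L KO and 4653.5 RPM in WT testes at 16.5 dpc, 16963 RPM in Dnmt3L KO and 9944 RPM in WT testes at 10 dpp, and 15673 RPM in Miwi2 KO and 15674 RPM in Miwi2 WT testes. Let-7a-5p stood at 3821 RPM in Dnmt3L KO and 2409 RPM in WT testes at 16.5 dpc, 8146 RPM in Dnmt3L KO and 4977 RPM in WT testes at 10 dpp, and 7878 RPM in Miwi2 KO and 9445 RPM in Miwi2 WT testes. Both forms were higher in all 4 libraries of 10 dpp than in both fetal libraries, and higher in Dnmt3L KO than in WT testes at both ages.

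Let-7b-5p was the least abundant 5p form in 4 of the 6 libraries. It stood at 916 RPM in Dnmt3L KO and 320.2 RPM in WT testes at 16.5 dpc, 2208 RPM in Dnmt3L KO and 1579 RPM in WT testes at 10 dpp, and 2039 RPM in Miwi2 KO and 1704 RPM in Miwi2 WT testes. Let-7d-5p stood at 1225 RPM in Dnmt3L KO and 405 RPM in WT testes at 16.5 dpc, 2414 RPM in Dnmt3L KO and 1461 RPM in WT testes at 10 dpp, and 3604 RPM in Miwi2 KO and 4190.15 RPM in Miwi2 WT testes. For both forms the Dnmt3L WT library of 16.5 dpc was the lowest of all 6. Let-7e-5p stood at 3094 RPM in Dnmt3L KO and 2199.6 RPM in WT testes at 16.5 dpc, 2985 RPM in Dnmt3L KO and 2441 RPM in WT testes at 10 dpp, and 3470.2 RPM in Miwi2 KO and 3379.8 RPM in Miwi2 WT testes. Its 6 values spanned the narrowest range of the 8 forms.

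The 3 forms without GG at bases 11 and 12 had their lowest level in the Dnmt3L KO library of 16.5 dpc. Let-7f-5p stood there at 1802 RPM, against 2528 RPM in WT testes of that age, at 13287 RPM in Dnmt3L KO and 10855 RPM in WT testes at 10 dpp, and at 24000.2 RPM in Miwi2 KO and 16067 RPM in Miwi2 WT testes. Let-7g-5p stood at 419.6 RPM in Dnmt3L KO and 1319 RPM in WT testes at 16.5 dpc, 3605 RPM in Dnmt3L KO and 2191 RPM in WT testes at 10 dpp, and 4236 RPM in Miwi2 KO and 3045 RPM in Miwi2 WT testes. Let-7i-5p stood at 1869.9 RPM in Dnmt3L KO and 5452 RPM in WT testes at 16.5 dpc, 6861 RPM in Dnmt3L KO and 4178 RPM in WT testes at 10 dpp, and 10775 RPM in Miwi2 KO and 8221 RPM in Miwi2 WT testes. Let-7f-5p was the leading form of 3 of the 4 libraries of 10 dpp, and let-7i-5p led in the Dnmt3L WT library of 16.5 dpc alone.

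**Figure D1:**
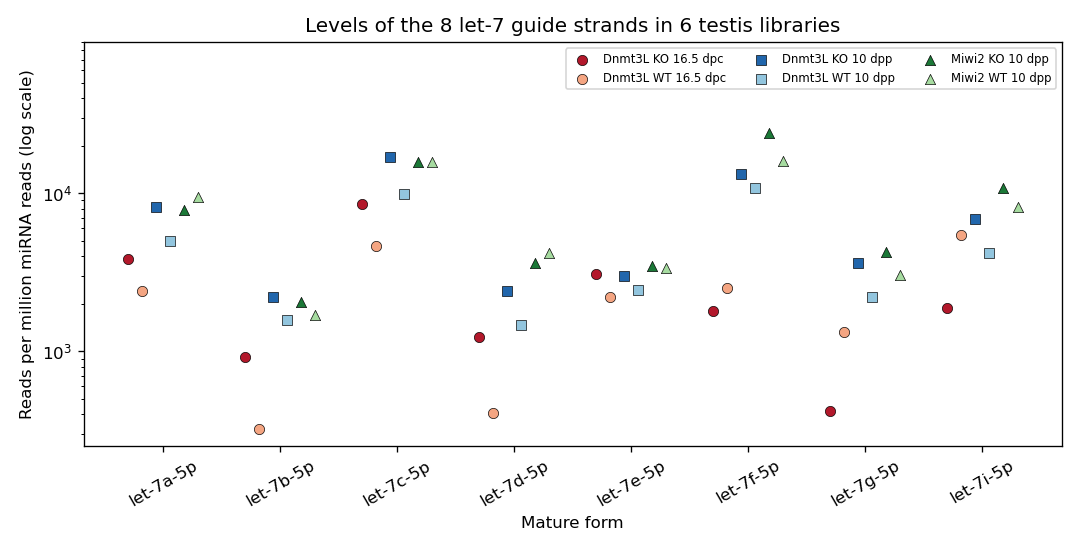
Level of each let-7 5p form (x axis) in miRNA-scaled reads (RPM, y axis, log scale), 1 point per library. The 10 dpp libraries lie above the fetal ones for most forms, while let-7g-5p and let-7i-5p drop to 419.6 and 1869.9 RPM in the Dnmt3L KO library of 16.5 dpc.

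Some neighbours in the order of levels were close. Let-7f-5p exceeded let-7c-5p 1.03-fold in Miwi2 WT and 1.09-fold in Dnmt3L WT testes at 10 dpp, and let-7i-5p exceeded let-7f-5p 1.04-fold in Dnmt3L KO testes at 16.5 dpc. Such gaps exceed counting error at these depths, but no spread between pools is known to set them against.

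The first comparison, Dnmt3L KO against WT testes at 16.5 dpc, covers the age at which Dnmt3L acts in fetal germ cells. The family total hardly differed, at 22500.0 RPM in KO and 20749.8 RPM in WT testes, a ratio of 1.08 (interval 1.08 to 1.09), and it came out slightly lower in KO when scaled to all reads (log2 ratio -0.08). Beneath this total the members diverged. All 5 forms with GG at bases 11 and 12 were higher in KO testes, and all 3 forms without it were lower, where 39.9% of 271 miRNA genes were higher. The grouping by these bases was chosen after the values were seen. These directions held under each of the 4 other scalings of the counts. Genotype and library cannot be told apart here, and this pair also differed over many miRNAs in the arm that was kept and in added 3′ adenine, as given below.

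Let-7d-5p was 3.02-fold higher in KO testes (interval 2.93 to 3.12), let-7b-5p 2.86-fold (2.76 to 2.97), let-7c-5p 1.85-fold (1.83 to 1.87), let-7a-5p 1.59-fold (1.56 to 1.61) and let-7e-5p 1.41-fold (1.38 to 1.43). In contrast, the KO over WT ratio was 0.318 for let-7g-5p (interval 0.308 to 0.328), 0.343 for let-7i-5p (0.338 to 0.348) and 0.713 for let-7f-5p (0.701 to 0.725). Forms with GG thus made up 81.2% of let-7 5p reads in KO and 51.8% in WT testes. The forms with GG hold 8 to 10 G or C bases in all and the 3 others 7 to 9, and let-7f-5p comes both from the Mirlet7a-1 cluster and from Mirlet7f-2 beside Mir98. The part of base composition and of locus in the split was not tested. Mir98, the seed relative without GG, stood at 58.1 RPM in KO and 127 RPM in WT testes, a ratio of 0.458.

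**Figure D2:**
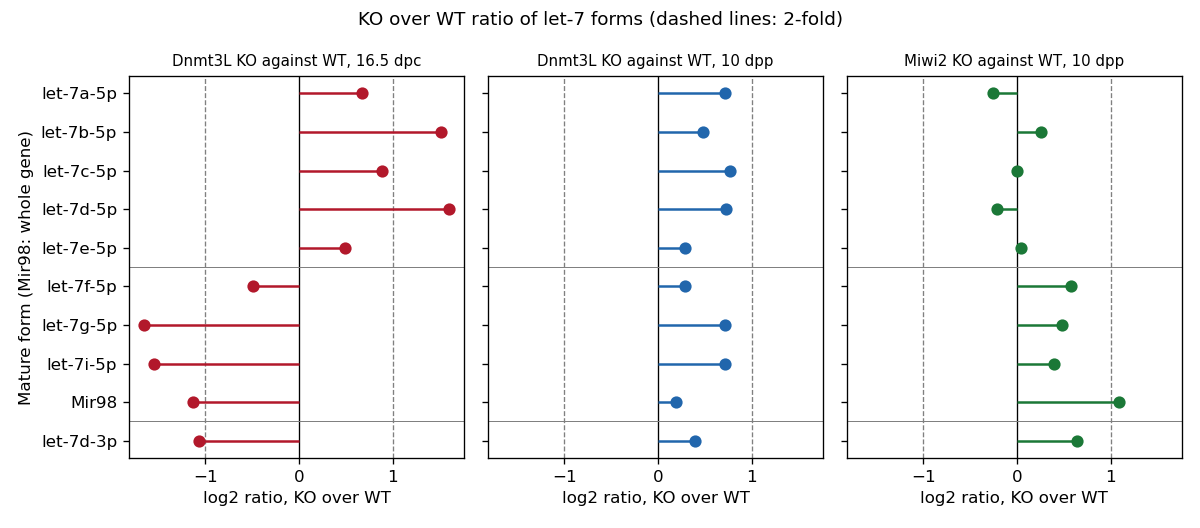
Log2 ratio of KO over WT (x axis) for the let-7 5p forms, Mir98 and let-7d-3p (y axis) in the 3 KO comparisons, with dashed lines at 2-fold and grey rules that separate the forms with GG at bases 11 and 12, those without, and let-7d-3p. At 16.5 dpc let-7a-5p to let-7e-5p lie right of 0 and let-7f-5p, let-7g-5p, let-7i-5p and Mir98 left of it.

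A count minimum of 1000 reads over the compared pair left 10 of the 17 forms at 16.5 dpc, namely the 8 5p forms, let-7d-3p and let-7e-3p. Of these, 2 were more than 2-fold higher in KO testes and 3 more than 2-fold lower, where 10.7% of the 271 miRNA genes with as many reads were 2-fold higher and 12.9% were 2-fold lower. A stricter limit came from the Miwi2 WT and Dnmt3L WT libraries of 10 dpp, between which 95% of 315 miRNA genes differed by a log2 ratio of at most 2.53 in size. None of the 10 forms passed it, against 2.21% of miRNA genes. The median log2 ratio was 0.58 over the 8 5p forms and -0.16 over the miRNA genes.

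Several marker miRNAs moved in the same pair of libraries. Mir202, the Sertoli cell miRNA, stood at 211 RPM in KO and 103 RPM in WT testes, a ratio of 2.04. The 6 miRNAs of peritubular and fibroblast cells summed to 23108 RPM in KO and 44060 RPM in WT testes (ratio 0.524), with 1 more than 2-fold higher and 1 more than 2-fold lower. Sums of the 15 X-linked germ cell miRNAs (10037 RPM in KO and 10897 RPM in WT testes) and of the 7 miRNAs of pluripotent and early germ cells (1006 RPM in KO and 943 RPM in WT testes) differed less, as did that of the 7 epithelial miRNAs (ratio 0.944). Median log2 ratios over members with enough reads were 0.09 for the X-linked, -0.34 for the pluripotent and early germ cell and 0.38 for the epithelial miRNAs. The part of all these cells in the let-7 split was not tested.

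Both arms of Mirlet7d were abundant, and they moved in opposite directions at 16.5 dpc. Let-7d-3p stood at 661 RPM in KO and 1390.2 RPM in WT testes, a ratio of 0.476 (interval 0.463 to 0.489), while let-7d-5p was 3.02-fold higher. The 3p arm therefore held 35.1% of Mirlet7d reads in KO (interval 34.4% to 35.7%) and 77.4% in WT testes (76.9% to 78.0%). This difference of -42.4 percentage points was the most negative of 174 genes with both arms counted, and 4 other genes moved at least as far in the other direction. Changes of arm were common in this pair, since 20 genes or 11.5% moved by more than 20 points, a bound chosen after the values were seen.

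At 10 dpp the 3p arm held 29.98% of Mirlet7d reads in Dnmt3L KO and 35.0% in WT testes, and 49.5% in Miwi2 KO and 35.2% in Miwi2 WT testes. The Dnmt3L WT library of 16.5 dpc was thus the only one of 6 in which let-7d-3p outnumbered let-7d-5p. Shifts of more than 20 points were rare at 10 dpp, at 0.532% of 188 genes between Dnmt3L KO and WT and 0.505% of 198 genes between Miwi2 KO and WT. Between ages the 3p share of Mirlet7d at 10 dpp minus that at 16.5 dpc was -42.5 points in Dnmt3L WT, where 8.6% of 186 genes moved by more than 20 points, and -5.08 points in Dnmt3L KO testes, where 9.42% of 191 genes did. Between Miwi2 WT and Dnmt3L WT testes it differed by 0.21 points, where 5.67% of 194 genes moved by more than 20 points.

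**Figure D3:**
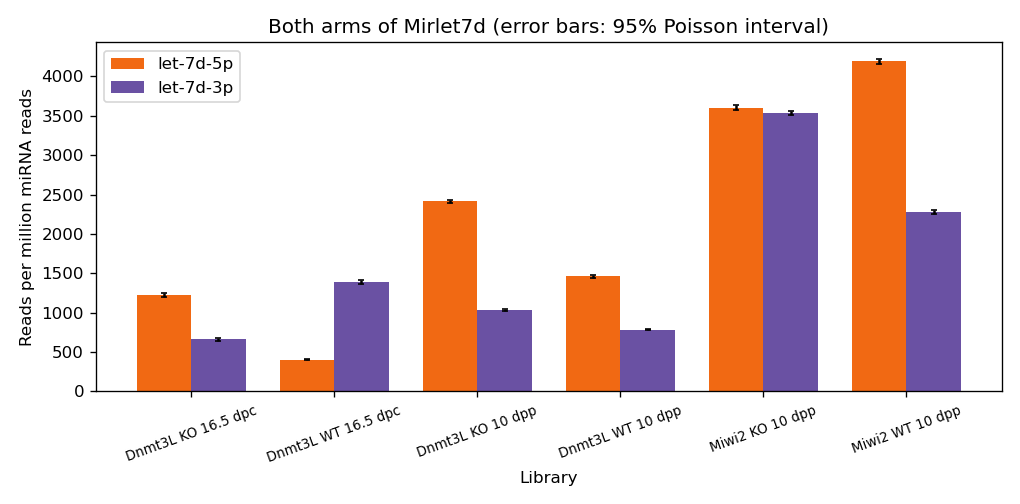
Level of let-7d-5p and let-7d-3p (y axis, RPM) in each library (x axis), with 95% Poisson intervals of counting error. Let-7d-3p exceeds let-7d-5p in the Dnmt3L WT library of 16.5 dpc, and the arms are nearly level in Miwi2 KO testes at 3604 and 3535 RPM.

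For the other 9 genes the 3p arm held at most 1.69% of reads. At 16.5 dpc let-7i-3p had 125 reads in KO and 59 reads in WT testes (ratio 2.17, interval 1.58 to 3.01), opposite in direction to let-7i-5p. Let-7g-3p had 18 reads in KO and 1 read in WT testes, a ratio of 18.4 with an interval of 2.91 to 769. Only 38.9% of these KO reads, and 0% to 4.598% of let-7g-3p reads in the 5 other libraries, began at the annotated first base, so most carried another seed than the one shown above. The arms of Mirlet7i and Mirlet7g thus differed in opposite directions, as those of Mirlet7d did. Let-7c-1-3p had 171 reads in KO and 232 reads in WT testes (ratio 0.755, interval 0.616 to 0.924), while let-7c-5p, which Mirlet7c-2 yields too, was higher in KO testes. Let-7e-3p was higher with its 5p partner, at 46.1 RPM in KO and 37.8 RPM in WT testes. So was let-7b-3p, with 88 reads in KO and 60 reads in WT testes (ratio 1.503, interval 1.07 to 2.12). At 10 dpp let-7b-3p had 178 reads in Dnmt3L KO and 124 reads in WT testes (ratio 1.62, interval 1.28 to 2.05), and 282 reads in Miwi2 KO and 197 reads in Miwi2 WT testes (ratio 1.77, interval 1.47 to 2.13).

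The 3p arms only partly separate paralogues whose guide strands are identical. Let-7c-1-3p stood at 14.1 to 26.8 RPM over the 6 libraries. The form shared by Mirlet7a-1 and Mirlet7c-2, whose reads cannot be assigned to either gene, stood at 4.79 to 14.5 RPM. Let-7f-1-3p had 4 to 16 reads per library and let-7f-2-3p 0 to 16 reads, too few to tell which of these genes supplied let-7f-5p. Let-7f-2-3p had 0 reads in Dnmt3L KO testes at 16.5 dpc. The allowance of 3 counts set above equals 0.248 RPM there, and the 95% interval ended at 0.305 RPM.

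At 10 dpp Dnmt3L KO testes held more let-7 than WT testes, and the members moved together. The family total was 57576 RPM in KO and 38462 RPM in WT testes, a ratio of 1.497 (interval 1.493 to 1.501). All 8 5p forms were higher in KO testes, where 58.1% of 296 miRNA genes were higher. Let-7c-5p was 1.71-fold higher, let-7d-5p 1.65-fold, let-7g-5p, let-7i-5p and let-7a-5p each 1.64-fold, let-7b-5p 1.40-fold, and let-7e-5p and let-7f-5p each 1.22-fold. Let-7d-3p was 1.32-fold higher.

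None of the 9 forms with enough reads was 2-fold higher or passed the limit of 2.53, against 4.73% of miRNA genes 2-fold higher, 31.1% 2-fold lower and 25.0% past the limit. The count of 2-fold forms depended on the scaling and was 1 with all reads, 5 with TMM and 7 with DESeq2 size factors. The median log2 ratio of all miRNA genes moved with it, from 0.25 with miRNA reads to 0.49, 0.59 and 0.89. Relative to that median, a value that no scaling alters, the family total was 1.26-fold higher in KO testes, let-7c-5p 1.43-fold, and let-7e-5p and let-7f-5p 1.03-fold.

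Germ cell and epithelial markers moved more than let-7 in this pair. The X-linked germ cell miRNAs summed to 14636 RPM in KO and 52134 RPM in WT testes (ratio 0.281), and 11 of the 13 with enough reads were more than 2-fold lower. The 7 epithelial miRNAs summed to 790 RPM in KO and 301 RPM in WT testes (ratio 2.62), with 4 of 6 more than 2-fold higher. Mir202 stood at 563 RPM in KO and 397 RPM in WT testes. The peritubular sum was 45354 RPM in KO and 48943 RPM in WT testes, though the median log2 ratio of its 6 miRNAs was 0.79. The part of all these cells in the let-7 values was not tested.

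Miwi2 KO testes differed less from their WT. The KO over WT ratios of the forms without GG lay above those of the forms with GG, the reverse of the fetal Dnmt3L pair. In the Dnmt3L pair after birth the ratios of both sets overlapped. The grouping by these bases was chosen after the values were seen, so the Miwi2 pair is not a separate check of it. The family total was 75338 RPM in KO and 64106 RPM in WT testes, a ratio of 1.18 (interval 1.17 to 1.18). Of the 8 5p forms 5 were higher in KO testes, where 43.7% of 311 miRNA genes were. The 3 forms without GG at bases 11 and 12 were among them, let-7f-5p 1.49-fold (interval 1.486 to 1.501), let-7g-5p 1.39-fold (1.38 to 1.41) and let-7i-5p 1.31-fold (1.30 to 1.32). The 5 forms with GG had ratios of 0.834 for let-7a-5p, 0.860 for let-7d-5p, 0.99995 for let-7c-5p, 1.03 for let-7e-5p and 1.20 for let-7b-5p, so every one lay below the lowest of the other 3. Let-7c-5p and let-7e-5p changed side of 1 under 1 of the 4 other scalings each.

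Forms with GG made up 45.6% of let-7 5p reads in Miwi2 KO and 55.7% in Miwi2 WT testes, and 57.9% in Dnmt3L KO and 54.2% in WT testes at 10 dpp. Mir98 stood at 425 RPM in Miwi2 KO and 200 RPM in WT testes, 2.12-fold higher, and at 206 RPM in Dnmt3L KO and 180.1 RPM in WT testes at 10 dpp. Let-7d-3p was 1.55-fold higher in Miwi2 KO testes while let-7d-5p was lower. As at 16.5 dpc in the Dnmt3L line, let-7d-3p thus moved with the forms that lack GG and not with let-7d-5p.

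None of the 10 let-7 forms with enough reads was 2-fold different in Miwi2 KO testes, against 4.82% of 311 miRNA genes 2-fold higher, 1.61% 2-fold lower and 0.643% past the limit of 2.53. The X-linked germ cell miRNAs summed to 81861 RPM in KO and 41182 RPM in WT testes (ratio 1.99), with 7 of 15 more than 2-fold higher. Mir202 was 1.68-fold and the endothelial Mir126a 1.62-fold higher in KO testes. The KO over WT ratio of sums was 1.02 for peritubular, 0.746 for pluripotent and early germ cell and 0.705 for epithelial miRNAs, of which 1 of 5 with enough reads was more than 2-fold lower. The part of these cells in the let-7 values was not tested.

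**Figure D4:**
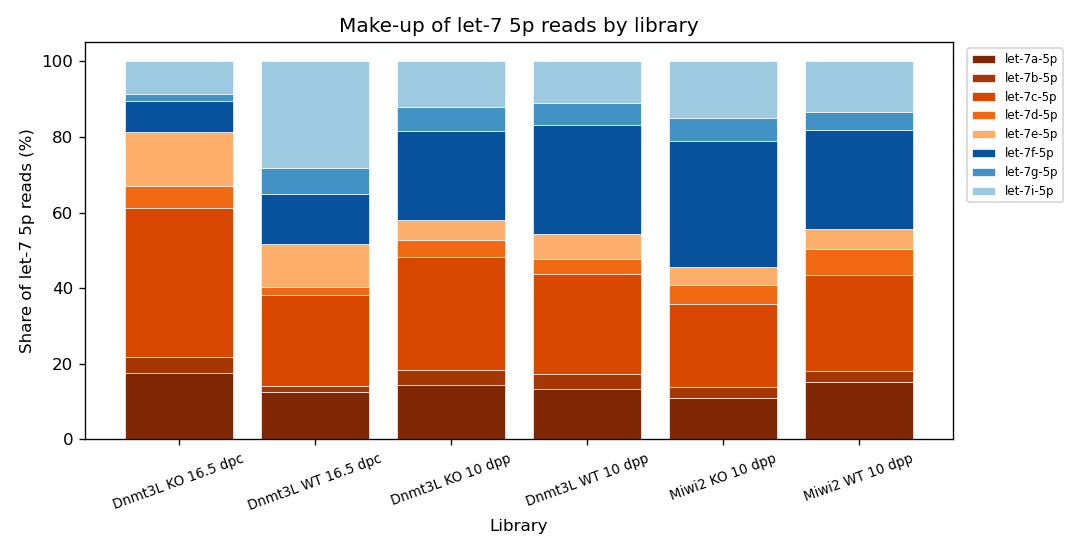
Share of let-7 5p reads (y axis, %) held by each form in each library (x axis), with forms that have GG at bases 11 and 12 in orange and brown and those without in blue. The orange and brown forms hold 81.2% in Dnmt3L KO testes at 16.5 dpc and 45.6% to 57.9% in the other 5 libraries.

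Between ages, the family total was 1.85-fold higher at 10 dpp than at 16.5 dpc in Dnmt3L WT testes (interval 1.85 to 1.86) and 2.56-fold higher in Dnmt3L KO testes (2.55 to 2.57). In WT testes the 10 dpp level exceeded the 16.5 dpc level 4.93-fold for let-7b-5p, 4.29-fold for let-7f-5p, 3.60-fold for let-7d-5p, 2.14-fold for let-7c-5p, 2.07-fold for let-7a-5p, 1.66-fold for let-7g-5p and 1.11-fold for let-7e-5p. Let-7i-5p was the exception, with a ratio of 0.766 that turned positive on the log2 scale, at 0.75 with all reads and 0.38 with TMM. With only reads of 20 to 24 nt, the log2 ratio in WT testes fell from 0.73 to 0.33 for let-7g-5p. For let-7e-5p it fell from 0.15 to 0.05. Reads of 18 nt made up 3.31% of let-7g-5p reads in WT testes at 16.5 dpc and 23.2% at 10 dpp. In WT testes 7 of 8 5p forms were higher at 10 dpp, where 55.9% of 297 miRNA genes were. Of the 9 forms with enough reads, 5 were 2-fold higher and none 2-fold lower, where 39.7% and 26.3% of miRNA genes were, and none passed the limit, where 20.9% did.

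In KO testes the order of these ratios was different. The forms without GG led, with let-7g-5p 8.59-fold, let-7f-5p 7.37-fold and let-7i-5p 3.67-fold higher at 10 dpp. Those with GG followed, with let-7b-5p 2.41-fold, let-7a-5p 2.13-fold and let-7c-5p and let-7d-5p each 1.97-fold higher, and let-7e-5p had a ratio of 0.965 that was above 1 under all 4 other scalings. In KO testes 7 of 8 5p forms were higher at 10 dpp, where 39.0% of 277 miRNA genes were. Of the 9 forms with enough reads, 5 were 2-fold higher and none 2-fold lower, where 25.6% and 44.8% of miRNA genes were. Let-7g-5p and let-7f-5p passed the limit, where 16.2% of miRNA genes did.

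Both age comparisons use the fetal libraries of the Dnmt3L comparison at 16.5 dpc, so they are not separate evidence of the split among forms. Relative to the median miRNA gene, the family total was 1.52-fold higher at 10 dpp in WT and 3.64-fold higher in KO testes. The miRNAs of pluripotent and early germ cells, in which LIN28 is known to act, summed to 78.2 RPM at 10 dpp and 943 RPM at 16.5 dpc in WT testes, and to 61.0 RPM at 10 dpp and 1006 RPM at 16.5 dpc in KO testes. The X-linked germ cell miRNAs were 4.78-fold higher at 10 dpp in WT and 1.46-fold higher in KO testes. MiRNA reads do not measure LIN28. The part of LIN28 and of changing cell numbers in these differences was not tested.

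The WT libraries of 10 dpp, from the Miwi2 and Dnmt3L lines, show how far let-7 values can lie apart without a knockout. The family total was 1.67-fold higher in Miwi2 WT than in Dnmt3L WT testes, a log2 ratio of 0.74 that became 0.03 with all reads, -0.08 with DESeq2 size factors and -0.51 with TMM. All 8 5p forms were higher in Miwi2 WT, by 1.08-fold to 2.87-fold, where 81.6% of 315 miRNA genes were higher. Among forms with at least 1000 reads over the pair, let-7d-5p (2.87-fold) and let-7d-3p (2.90-fold) alone were 2-fold higher, and both kept their direction under every scaling, where 37.1% of genes were 2-fold higher and 3.49% 2-fold lower. Relative to the median miRNA gene the family total differed by 1.06-fold. With miRNA reads as the scale, the gap between these WT libraries in the family total was wider than either KO difference at 10 dpp, while with all reads it was narrower than both.

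Over the 6 libraries, the levels of the members were described by Pearson's r of log2 levels. All pairs among let-7a-5p, let-7b-5p, let-7c-5p and let-7d-5p had r of 0.91 to 0.98. Let-7g-5p went with let-7f-5p (r = 0.93) and let-7i-5p (r = 0.93), and let-7i-5p with let-7d-3p (r = 0.86). No sharp groups formed, since let-7f-5p had r of 0.87 with let-7a-5p and 0.82 with let-7i-5p. Let-7d-5p and let-7e-5p also had r of 0.87. Let-7d-5p and let-7d-3p, from 1 hairpin, had r of 0.50, and let-7e-5p and let-7g-5p had 0.27. These points share libraries and depth, and no test was made on them.

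Of 375 miRNA genes outside the family, the 5 whose level was most like the family total over the 6 libraries were Mir15a (r = 0.99), Mir200a (0.98), Mir1843b (0.98), Mir204 (0.98) and Mir411 (0.98). Mir15a, for one, stood at 38.3 RPM in Dnmt3L KO and 50.6 RPM in WT testes at 16.5 dpc, 288 RPM in Dnmt3L KO and 155 RPM in WT testes at 10 dpp, and 473 RPM in Miwi2 KO and 333 RPM in Miwi2 WT testes. With 6 points, mainly split by age, many genes can reach such values.

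A list of 7 miRNA genes that neighbour let-7 genes in the genome (Mir98, Mir99a, Mir99b, Mir100, Mir125a, Mir125b-1 and Mir125b-2) was also compared. At 16.5 dpc none was 2-fold higher in Dnmt3L KO testes and 1, Mir98, was 2-fold lower, with a median log2 ratio of 0.46 and the 6 others between 1.21-fold and 1.86-fold higher. At 10 dpp none was 2-fold different in Dnmt3L KO testes (median 0.20), and in Miwi2 KO testes Mir98 alone was 2-fold higher (median -0.05). Mir99b and Mir125a, which lie near Mirlet7e, were 1.38-fold higher in Dnmt3L KO testes at 16.5 dpc, close to let-7e-5p at 1.41-fold. At 10 dpp their KO over WT ratios were 0.896 and 1.05 in the Dnmt3L line, against 1.22 for let-7e-5p. In the Miwi2 line they were 0.961 and 1.03, against 1.03. For Miwi2 WT over Dnmt3L WT they were 0.958 and 0.395, against 1.38. Between ages in WT testes Mir99a, which shares Mir99ahg with Mirlet7c-1, was 2.60-fold higher at 10 dpp, Mir100 2.44-fold and Mir98 1.42-fold. In contrast, the ratio was 0.773 for Mir125b-2, 0.727 for Mir125b-1, 0.712 for Mir125a and 0.671 for Mir99b.

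The ends of the reads differed between members and between libraries. Almost all family reads, 99.4% to 99.6% per library, began at the annotated first base and so carried the annotated seed, with let-7g-3p as the exception given above. The share of family reads with 22 nt was 84.4% in Dnmt3L KO and 82.4% in WT testes at 16.5 dpc, 69.7% in Dnmt3L KO and 69.3% in WT testes at 10 dpp, and 68.6% in Miwi2 KO and 69.8% in Miwi2 WT testes. At 10 dpp, reads of 21 nt filled much of the difference, with 18.4% to 21.6% of family reads against 8.23% to 10.5% at 16.5 dpc. Among the 5p forms at 10 dpp, reads of 21 nt were most frequent for let-7e-5p, with 38.1% to 44.5% of its reads at 21 nt in the 4 libraries of that age against 16.5% in Dnmt3L KO and 22.3% in WT testes at 16.5 dpc. Of the 3p forms, let-7b-3p had 88.2% to 96.6% of its reads at 21 nt in every library.

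Reads of 18 nt, the shortest counted, were concentrated in let-7g-5p, let-7e-5p and let-7i-5p. They made up 10.9% of let-7g-5p reads in Dnmt3L KO and 3.31% in WT testes at 16.5 dpc, 22.3% in Dnmt3L KO and 23.2% in WT testes at 10 dpp, and 17.9% in Miwi2 KO and 18.7% in Miwi2 WT testes. For let-7i-5p the share was 8.19% in Dnmt3L KO and 7.35% in WT testes at 16.5 dpc, 9.06% in Dnmt3L KO and 11.4% in WT testes at 10 dpp, but 1.05% in Miwi2 KO and 1.27% in Miwi2 WT testes. The short let-7i-5p reads thus separated the lines and not the genotypes, while the 5 forms other than these 3 had at most 2.87% of reads at 18 nt.

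Mature miRNAs are known to gain single bases at the 3′ end that the gene does not encode. The share of reads with 1 added adenine after the full 22 nt, among reads of the exact form or with that addition, was highest for let-7i-5p in every library. It was 19.3% in Dnmt3L KO and 12.9% in WT testes at 16.5 dpc, 17.5% in Dnmt3L KO and 16.9% in WT testes at 10 dpp, and 17.8% in Miwi2 KO and 20.01% in Miwi2 WT testes. At 16.5 dpc the share was higher in KO testes for 7 of 8 forms, where 77.3% of 119 mature miRNAs were higher. It was higher by more than 5 points, a bound set after the values were seen, for 4 forms, where 23.5% of mature miRNAs were.

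These 4 were let-7g-5p (17.6% in KO and 8.12% in WT testes), let-7f-5p (13.6% in KO and 4.86% in WT testes), let-7a-5p (12.8% in KO and 5.67% in WT testes) and let-7i-5p, so they came from both sides of the split in levels. Let-7d-5p was the exception among the 8, with 5.19% in KO and 6.02% in WT testes and overlapping intervals. Added uridine was counted whether or not the gene encodes that base. At 16.5 dpc its widest gap among forms was that of let-7f-5p, with 13.8% in KO and 9.86% in WT testes. At 10 dpp the added adenine share was higher in Dnmt3L KO testes for 6 of 8 forms, where 59.5% of 126 mature miRNAs were higher, and in Miwi2 KO testes for none of 8, where 46.4% of 138 were. No form was higher by more than 5 points in KO testes in either comparison, where 1.59% of mature miRNAs were in the Dnmt3L line and 0.725% in the Miwi2 line. Between ages the share was higher at 10 dpp for 5 of 8 forms in Dnmt3L WT testes, where 42.9% of 126 mature miRNAs were, and for none of 8 in Dnmt3L KO testes, where 20.6% were. By more than 5 points it was higher for 1 form in WT (7.14% of mature miRNAs) and for none in KO testes (3.17%).

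**Figure D5:**
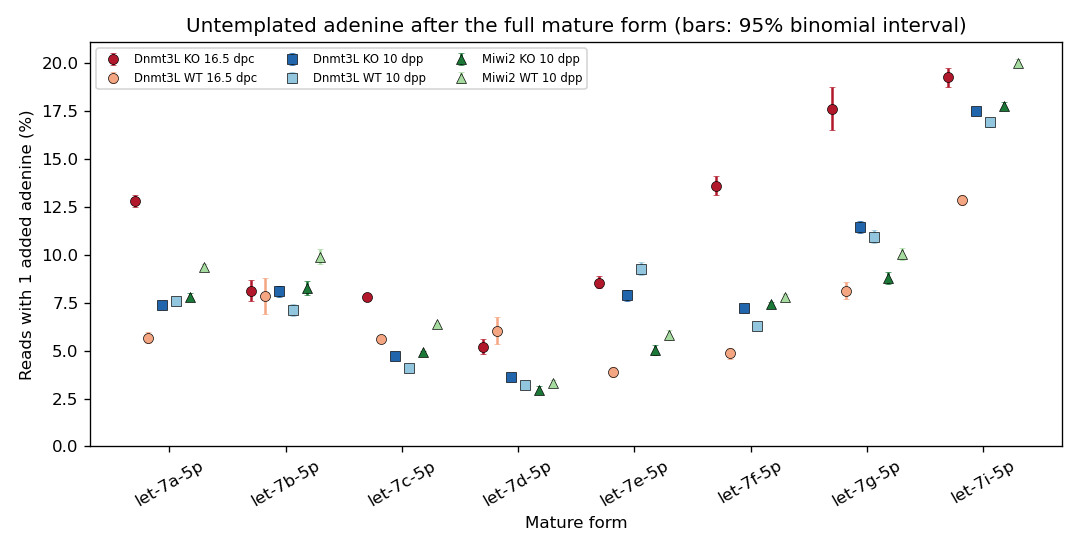
Share of reads with 1 untemplated adenine after the full mature form (y axis, %) for each let-7 5p form (x axis) in each library, with 95% binomial intervals of counting error. Let-7i-5p is highest throughout, and let-7a-5p, let-7f-5p, let-7g-5p and let-7i-5p stand more than 5 points higher in Dnmt3L KO than in WT testes at 16.5 dpc.

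Since only exact matches were counted, reads with 1 changed base were listed apart. A G4T change (position 4 from the 5′ end, G in the form and T in the read) was the most frequent variant of all 8 5p forms in both fetal libraries and both Miwi2 libraries, at 5.66% to 7.19% of exact reads. In the Dnmt3L libraries of 10 dpp it stood at 0.0666% to 0.146%. Within each KO comparison it differed by less than 1 point for every member. The age comparisons and the comparison of WT libraries set libraries with and without the variant side by side, and its effect there was not tested.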

How the data were processed

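Total RNA of whole testis was extracted with Trizol and an 18 to 35 nt fraction was made into TruSeq small RNA libraries, per the labels' protocols. Each of the 6 deposited files lists a read sequence and its count, a raw whole-number count of reads made by the authors. How reads were trimmed or aligned is not stated in the labels. Per the submitters' processing notes the build was mm9, and printed coordinates are on GRCm38.

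Reads of 18 to 26 nt were matched without mismatch to the sense strand of 2202 miRNA genes of GENCODE release M21. A read belonged to a RefSeq mature form when it covered at least 15 of its bases, and a read shared by let-7 forms was split evenly among them. In gene and arm counts, a read shared by genes was split evenly. The family total and form levels count reads in full where genes outside the 10, such as Mirlet7a-2, also hold them. Between 82.99% and 89.4% of family reads per library matched the 10 genes only. Levels are counts per 1000000 reads of miRNA genes. Mature forms and miRNA genes with at least 1000 reads over a pair were compared by log2 ratios, at 2-fold and at the 95th percentile between both WT libraries of 10 dpp. No test was possible with 1 library per group. Intervals (exact Poisson, Clopper-Pearson and conditional binomial, 95%) cover counting error only. Scaling to all reads, to miRNA reads outside let-7, by TMM (edgeR 4.0.16) and by size factors (DESeq2 1.42.0), and other read filters, were alternatives. Read assignment and ratios were tested on simulated data. Python 3.11.15, scipy 1.17.1 and R 4.3.3 were used.

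The text names every let-7 mature form, every gene with the let-7 seed, the 7 neighbours, and the 5 genes most like the family total. Members, marker lists and rules were chosen with earlier results of these data known. Marker lists held 1 miRNA for Sertoli cells, 6 for peritubular and fibroblast cells, 1 for endothelium, 4 for blood, 15 for germ cells, 7 for pluripotent and early germ cells and 7 for epithelium. Marker sums not given in the report are KO over WT ratios at 16.5 dpc, in the Dnmt3L line at 10 dpp and in the Miwi2 line of 1.12, 1.32 and 1.28 for blood. For endothelium they are 0.782 and 1.07 in the Dnmt3L line at 16.5 dpc and 10 dpp.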

Additional observations from a re-analysis of the deposited data

Results flagged for a closer look

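Several let-7 forms stood on opposite sides of 1 in the same contrast at the 2 ages or in the 2 genotypes of the Dnmt3L line. With 1 library per group, none of these differences was tested. For Dnmt3L KO over WT, the log2 ratio was 0.29 at 10 dpp and -0.49 at 16.5 dpc for let-7f-5p, 0.72 at 10 dpp and -1.65 at 16.5 dpc for let-7g-5p, and 0.72 at 10 dpp and -1.54 at 16.5 dpc for let-7i-5p. Let-7d-3p, from the other arm of the hairpin, had 0.40 at 10 dpp and -1.07 at 16.5 dpc. These are the 3 guide strands without GG at bases 11 and 12, and the 3p form that moved with them.

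For 10 dpp over 16.5 dpc, the log2 ratio of let-7i-5p was 1.88 in KO and -0.38 in WT testes, and that of let-7d-3p was 0.64 in KO and -0.82 in WT testes. Scaled to all reads, the values were 3.44 in KO and 0.75 in WT testes for let-7i-5p and 2.204 in KO and 0.31 in WT testes for let-7d-3p, so both genotypes were then positive. With TMM the WT value was 0.38 for let-7i-5p and -0.05 for let-7d-3p. Let-7e-5p had -0.05 in KO and 0.15 in WT testes with miRNA reads, but 1.51 in KO and 1.28 in WT testes with all reads. The age and genotype contrasts share the 4 Dnmt3L libraries, so the same fetal values enter both.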

How the results depend on the processing

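Each group was 1 library, so no replicate could be left out. No paired analysis was possible because the groups share no replicate: the number 1 is only a name. Values below are log2 ratios of the family total, in the order all reads, TMM, DESeq2 size factors, miRNA reads outside let-7, and reads of 20 to 24 nt. For Dnmt3L KO over WT at 16.5 dpc they were -0.075, 0.063, 0.042, 0.12 and 0.14 (0.12 with miRNA reads), the one KO comparison in which the total changed side of 0. For Dnmt3L KO over WT at 10 dpp they were 0.82, 0.92, 1.22, 0.61 and 0.58 (0.58 with miRNA reads), and for Miwi2 KO over WT 0.20, 0.20, 0.18, 0.25 and 0.23 (0.23). For 10 dpp over 16.5 dpc they were 2.02, 1.66, 1.22, 0.92 and 0.86 in Dnmt3L WT (0.89) and 2.92, 2.52, 2.39, 1.41 and 1.29 in Dnmt3L KO testes (1.36). For Miwi2 WT over Dnmt3L WT they were 0.034, -0.51, -0.080, 0.78 and 0.77 (0.74). Forms past 2-fold were 1, 5 and 7 in Dnmt3L KO against WT at 10 dpp with all reads, TMM and DESeq2 size factors (0 with miRNA reads), 9, 9 and 8 between ages in KO testes (5), and 0, 1 and 0 between the WT libraries (2). Forms past the limit between ages were 3, 3 and 2 in WT (0) and 7, 5 and 4 in KO testes (2), and 1 in KO testes with no count minimum. The cause was not tested. At 16.5 dpc all 10 forms kept their direction, with 2 higher and 3 lower past 2-fold, under each alternative. Depth limited the 3p forms other than let-7d-3p and let-7e-3p, which had at most 468 reads in a library.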
